A study of Homo sapiens with 9 samples.

Results

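HK2 and GALM encode enzymes that act where sugars enter metabolism, and they are 2 of the 14884 genes named in a table of transcript levels from macrophage-like THP-1 cells. Both were found by symbol in the platform annotation, and each had 1 row. The pair was chosen by measured values, since it was proposed with the log2 differences from vehicle on these same arrays in view, GALM being among the largest rises with osimertinib. All comparisons of HK2 and GALM between the groups are therefore given as a description, with no test, and tests are kept for the other genes of sugar metabolism. The lists that name those genes were also chosen with earlier results of these data known, so their p-values and shares give no independent support. HK2 and GALM were both higher with either drug than with vehicle. HK2 stood highest with cisplatin and GALM stood highest with osimertinib.

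Hexokinases phosphorylate glucose as it arrives in the cell, which traps the sugar and commits it to glycolysis, the pentose phosphate pathway, glycogen or hexosamines. HK2 is the inducible hexokinase of muscle, fat and activated immune cells, docks on the outer mitochondrial membrane through VDAC channels, and is a known target of hypoxia-inducible factors and MYC. GALM, galactose mutarotase or aldose epimerase, interconverts the alpha and beta forms of galactose and glucose. The alpha form of galactose is the one that galactokinase accepts, so GALM opens the Leloir pathway, in which GALK1 and then GALT act on galactose.

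THP-1 is a human monocytic leukaemia line, differentiated here with the phorbol ester PMA to the unpolarised state called M0. Such cells model a macrophage but remain 1 leukaemia line, and all groups carried the PMA treatment. They were given vehicle, cisplatin at 0.5 µM (a platinum drug that crosslinks DNA) or osimertinib at 100 nM (a covalent inhibitor of mutant epidermal growth factor receptor) for 16 h, with 3 replicates a group that the series' design text calls independent and biological. Total RNA of each replicate went to 1 Affymetrix Human Gene 2.0 ST array, so there were 9 arrays, whose number limits the precision. The levels were deposited on a scale read as log2. In bulk RNA, a change in the number of cells that carry a transcript and a change in the amount per cell cannot be told apart. Of 18 macrophage markers 9 were named in the table, and 6 (CD14, CD68, CSF1R, MSR1, SPI1 and TYROBP) had a mean level at or above the limit of 4.28 that was set for testing, with CD68 at 9.71. LYZ, CD163 and MARCO were below it. Summed over the 9 named markers, the log2 levels were 50.3 to 50.6 with vehicle, 51.1 to 52.6 with cisplatin and 50.4 to 51.6 with osimertinib. CD68 rose by 0.51 with cisplatin and 0.30 with osimertinib (limma adjusted p = 1.97e-05 and 0.0012), and CSF1R by 0.50 and 0.29 (limma adjusted p = 1.05e-04 and 0.00554), while the other 4 were not called. CD68 and CSF1R thus rose with both drugs, in which HK2 and GALM were also higher, and their part in the results was not tested. Over all tested genes 16.5% and 16.9% were called higher with cisplatin and osimertinib. The 6 tested markers were too few to set against these shares. Of the markers of T, B, NK, erythroid, epithelial, fibroblast and endothelial cells, those at or above the limit were CD8A, CD4, PAX5, NCAM1, NKG7, KRT8, KRT18 and PECAM1. Among these CD4, which macrophages also carry, rose with both drugs, NCAM1 fell with osimertinib and KRT18 fell with both. Over all tested genes 14.5% and 13.7% were called lower with cisplatin and osimertinib. These markers, too, were too few to set against the shares over all genes.

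The stretches of DNA just before the transcription starts of both genes are shown because they carry letter patterns of factors known to govern sugar genes. They come from RefSeq on GRCh38.p14, plus strand, and each ends at the base before a start. RefSeq gives HK2 2 starts, whose windows are chr2:74833877-74834126 and chr2:74834920-74835169, and GALM 1, whose window is chr2:38665864-38666113. Capitals mark the E-box CACGTG, the hypoxia response cores ACGTG and GCGTG, and the antioxidant response core TGACNNNGC, on either strand.
HK2, first start: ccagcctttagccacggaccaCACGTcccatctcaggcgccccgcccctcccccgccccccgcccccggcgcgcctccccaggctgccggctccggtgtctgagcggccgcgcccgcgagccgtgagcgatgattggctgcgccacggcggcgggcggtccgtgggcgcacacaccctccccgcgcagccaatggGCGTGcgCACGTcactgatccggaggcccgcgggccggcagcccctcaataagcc
HK2, second start: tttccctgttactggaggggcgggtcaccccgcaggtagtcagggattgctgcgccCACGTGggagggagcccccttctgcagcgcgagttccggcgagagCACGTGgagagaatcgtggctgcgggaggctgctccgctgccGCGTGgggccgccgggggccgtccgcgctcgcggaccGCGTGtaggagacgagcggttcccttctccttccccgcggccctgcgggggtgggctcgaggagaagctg
GALM: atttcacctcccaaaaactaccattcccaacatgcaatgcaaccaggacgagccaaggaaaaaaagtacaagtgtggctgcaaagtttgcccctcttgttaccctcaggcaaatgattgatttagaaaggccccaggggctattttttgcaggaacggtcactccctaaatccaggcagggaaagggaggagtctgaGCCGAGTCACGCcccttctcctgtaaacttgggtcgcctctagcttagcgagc

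The upstream windows of HK2 and GALM differed in composition and in matches. G and C made up 76.8% of the first HK2 window, 71.6% of the second and 50.4% of the GALM window, against a median of 58.0% over the 35116 windows of 250 bases in the RefSeq table. The second HK2 window held the E-box, read by MYC, USF and MondoA factors, at 194 and 149 bases before the start. The E-box occurred in 6.34% of all windows, and the other 2 windows lacked these letters. The core ACGTG, of which each E-box holds a copy on both strands, occurred in 18.5% of all windows and stood in the first HK2 window at 229 and 48 bases before the start. There the second of these lay beside GCGTG at 55 bases, and GCGTG occurred in 32.2% of all windows. The GALM window held the antioxidant response core, the site of NRF2, at 53 bases before the start, overlapping a reverse copy of GCGTG at 46 bases. That core occurred in 10.9% of all windows. The GC box GGGCGG (42.6% of windows) matched 4 times in the first HK2 window and 1 time in the second, and CCAAT (32% of windows) matched 2 times in the first. The NF-kB site pattern (22.6%) matched 1 time in the second HK2 window and 1 time in that of GALM. The letters of TATAAA (10.7%), the AP-1 site TGANTCA (6.57%), the heat shock pair GAANNTTC (5.78%) and the amino acid response core TGATGNAA (3.14%) were absent from all 3 windows. Such matches describe the letters and say nothing of binding in these cells.

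HK2 (Entrez gene 3099) had a mean level of 8.13 over the 9 arrays. Levels are compared within a gene only, since rows of different genes need not reflect abundance: GAPDH and LYZ, abundant transcripts in macrophages, read low, LYZ at a mean of 3.25. For HK2 the 3 vehicle arrays gave log2 levels of 7.39, 7.29 and 7.36. The 3 cisplatin arrays gave 8.48, 8.72 and 8.69, and the 3 osimertinib arrays gave 8.39, 8.44 and 8.38. All 6 drug-treated arrays thus lay above all vehicle arrays, and the lowest cisplatin array, replicate 1, lay 0.04 above the highest osimertinib array. The group means were 7.35 ± 0.05, 8.63 ± 0.13 and 8.40 ± 0.032 (SD, n = 3 each). HK2 was 2.44-fold above vehicle with cisplatin (log2 difference 1.28, SE 0.068) and 2.08-fold above it with osimertinib (1.06, SE 0.068). Between the drugs the difference in HK2 was small beside these, -0.23 for osimertinib minus cisplatin (SE 0.068), and it was -0.30 without cisplatin replicate 1 and -0.18 without cisplatin replicate 2.

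GALM (Entrez gene 130589) had a mean level of 5.13, and 1 vehicle array lay below the limit of 4.28. Its log2 levels were 4.52, 4.55 and 4.09 on the vehicle arrays. The cisplatin arrays gave 5.16, 5.19 and 5.16, and the osimertinib arrays gave 5.90, 5.78 and 5.84. The 3 groups formed 3 separate steps with no overlap, vehicle lowest and osimertinib highest, and the gaps between neighbouring steps were 0.61 and 0.59. The group means were 4.39 ± 0.26, 5.17 ± 0.016 and 5.84 ± 0.057 (SD, n = 3 each). GALM was 1.72-fold above vehicle with cisplatin (log2 difference 0.78, SE 0.12) and 2.73-fold above it with osimertinib (1.45, SE 0.12). Cisplatin replicates 1 and 3 carried 1 equal value, so the SD of that group may understate its spread. Vehicle replicate 3, the lowest array, widened the spread of its group. Without it the differences from vehicle were 0.64 with cisplatin and 1.30 with osimertinib. Between the drugs GALM was 1.59-fold higher with osimertinib (0.67, SE 0.12).

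**Figure D1:**
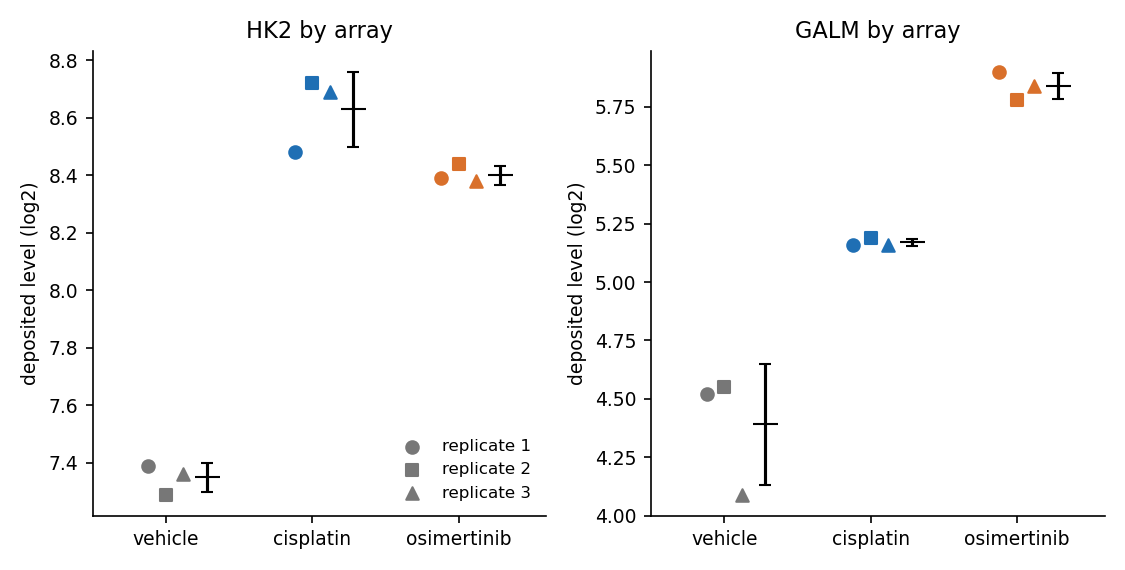
Deposited log2 level (vertical axes, which do not start at 0 and differ between panels) of HK2 (left) and GALM (right) on each of the 9 arrays by treatment; point shapes give the replicate number, and the bars at the side of each group are the mean and SD of 3 arrays. HK2 sits near 7.35 with vehicle and highest with cisplatin at 8.63, whereas GALM climbs from 4.39 over 5.17 to 5.84.

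HK2 and GALM thus took different orders across the groups. Groups that do not overlap were common among the 7442 tested genes: 42.3% with cisplatin against vehicle (22.5% higher, 19.8% lower), 44.1% with osimertinib against vehicle (24.6% higher, 19.5% lower) and 14.3% between the drugs (7.44% higher with osimertinib, 6.88% lower). In 17.6% of the tested genes every array of both drugs lay above every vehicle array. The order of GALM, vehicle below cisplatin below osimertinib with no overlap, was shared by 1.59% of tested genes, and the order of HK2, vehicle below osimertinib below cisplatin, by 1.56%. Among all tested genes, ranked by their difference from vehicle, HK2 was in place 25 with cisplatin and in place 42 with osimertinib. GALM was in place 134 with cisplatin and in place 9 with osimertinib. In the difference between the drugs GALM was in place 18 from the top, while HK2 was in place 498 from the bottom. The comparisons with vehicle share the 3 vehicle arrays, so the 2 differences of a gene are not independent.

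**Figure D2:**
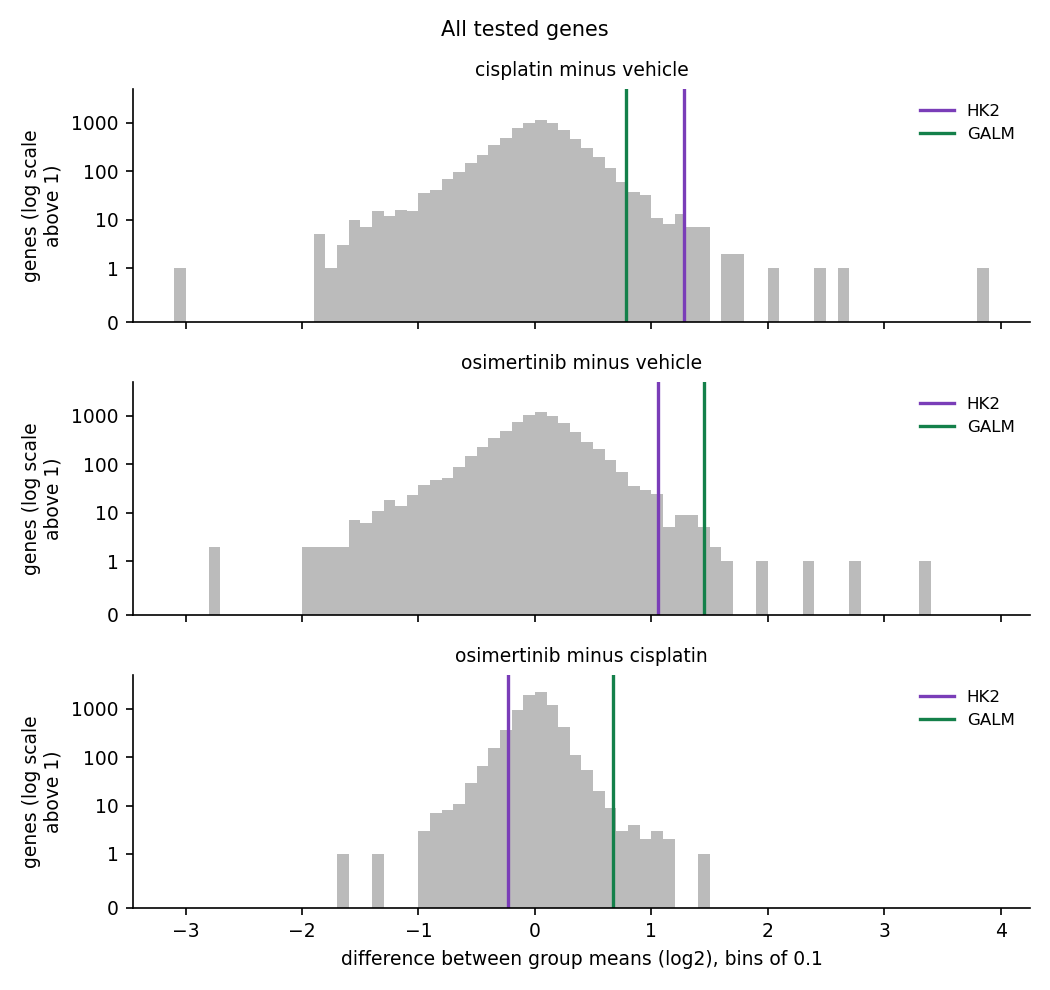
Number of tested genes (vertical axis, log scale above 1) by log2 difference between group means (horizontal axis, bins of 0.1) for the 3 contrasts, with HK2 and GALM as vertical lines. Both lines stand to the right of the bulk against vehicle, at 1.28 and 0.78 with cisplatin and at 1.06 and 1.45 with osimertinib, and on opposite sides of 0 between the drugs.

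The other genes of sugar metabolism were tested with limma, with p-values adjusted over all 7442 tested genes by Benjamini-Hochberg and called under 0.05. Over all genes 31% were called with cisplatin (16.5% higher and 14.5% lower), 30.6% with osimertinib (16.9% higher and 13.7% lower) and 1.75% between the drugs (0.766% higher and 0.981% lower). The lists held 189 genes and were chosen with earlier results of these data known, so the shares below are a description of the lists. A named row existed for 95, and 79 were tested beside HK2 and GALM. With cisplatin 18 of the 79 rose and 5 fell, which is 22.8% and 6.33%. With osimertinib 21 rose and 5 fell, 26.6% and 6.33%. The genes counted as risen include HK3 and RENBP, which passed the level limit only through the treated groups. Between the drugs 3 were higher with osimertinib (ARRDC3, OGA and EPAS1) and 0 lower. The median difference of the 79 was 0.11 with cisplatin and 0.12 with osimertinib, beside 0.03 and 0.04 for all tested genes. The count with cisplatin fell from 23 to 15 without vehicle replicate 3 and to 14 without cisplatin replicate 3, and that with osimertinib fell from 26 to 16 without osimertinib replicate 1. With cisplatin ARRDC4 and HK3 were the members with a larger difference than HK2. With osimertinib ARRDC4 alone exceeded GALM, and ARRDC3, ARRDC4, EPAS1 and HK3 exceeded HK2.

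Among the hexokinases, HK3, the hexokinase of myeloid cells, gave log2 levels of 3.63, 3.68 and 3.50 with vehicle, 4.77, 4.98 and 5.06 with cisplatin, and 4.58, 4.80 and 4.68 with osimertinib. Every treated array lay above every vehicle array, and the cisplatin and osimertinib arrays overlapped. Its vehicle mean of 3.60 lay below the limit of 4.28, so HK3 entered the test only through its treated arrays, and how far its vehicle signal stood above background was not measured. Its log2 differences from vehicle, 1.33 with cisplatin and 1.08 with osimertinib (SE 0.12 each), are therefore given as a description. HK3 was also called in both contrasts in the setting without a level limit. The other alternative settings keep such a limit, so their calls of HK3 add no support. HK1, the hexokinase of most tissues, was at 6.63 ± 0.096, 6.88 ± 0.096 and 6.73 ± 0.059 (SD, n = 3 each). It rose by 0.25 with cisplatin (limma adjusted p = 0.0328), a call lost without the level limit and without vehicle replicate 1 or 3 or cisplatin replicate 2 or 3 (up to 0.127), and its difference with osimertinib was 0.10 (limma adjusted p = 0.371). HKDC1 was named but too low to be tested, at 3.04, 3.11 and 2.94. Neither HK1 nor HK3 was called between the drugs (limma adjusted p = 0.548 and 0.434, differences -0.15 and -0.25).

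In the Leloir pathway 0 of the 3 tested genes beside GALM were called higher, and GALT fell. So few genes cannot be set against the 16.5% and 16.9% of all tested genes called higher with cisplatin and osimertinib. GALK1, the kinase that takes up the product of GALM, was at 5.88 ± 0.074, 5.99 ± 0.093 and 6.02 ± 0.027 (SD, n = 3 each), with differences of 0.11 and 0.14 that were not called (limma adjusted p = 0.364 and 0.25). GALT, the uridylyltransferase whose loss causes classic galactosaemia, gave 5.22, 5.39 and 5.30 with vehicle, 4.81, 4.93 and 4.88 with cisplatin, and 5.00, 5.07 and 5.02 with osimertinib. All treated arrays lay below all vehicle arrays. GALT fell by 0.43 with cisplatin (SE 0.096, limma adjusted p = 0.00405). Its fall of 0.27 with osimertinib (SE 0.096, limma adjusted p = 0.0462) was called under 4 of 15 alternative settings, with the highest adjusted p, 0.147, without vehicle replicate 2. UGP2, which makes the UDP-glucose that GALT uses, was at -0.09 and 0.07 (limma adjusted p = 0.563 and 0.688), and PGM1 was too low to be tested.

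Of the core glycolytic enzymes 6 were tested, and their calls, 2 with cisplatin and 1 with osimertinib, were too few to set against the 31% and 30.6% of all tested genes. With cisplatin 2 rose: PGAM1 by 0.43 (limma adjusted p = 0.0111) and GPI, which receives the product of the hexokinases, by 0.21 (limma adjusted p = 0.0112). GAPDH fell by 0.38 with osimertinib (limma adjusted p = 0.0146). The median difference of the 6 was 0.01 with cisplatin and -0.02 with osimertinib. The PGAM1 call was lost without vehicle replicate 1 or cisplatin replicate 2 or 3 (limma adjusted p up to 0.0551). The GPI call was lost with a plain variance model and without vehicle replicate 3 or cisplatin replicate 2 (up to 0.0544). That of GAPDH was lost without vehicle replicate 2 or osimertinib replicate 1 (up to 0.0694). The hexose transporters, the step before HK2, were not analysed here because none of the 19 listed was named. The 1 tested gene of fructose-2,6-bisphosphate, TIGAR, was at 0.51 and 0.55 (limma adjusted p = 0.0758 and 0.0565).

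The pentose phosphate pathway, which draws on the product of the hexokinases to make NADPH, had 1 of 7 tested members higher with cisplatin and 4 with osimertinib, and 0 lower. Over all tested genes 16.5% and 16.9% were called higher with these drugs and 14.5% and 13.7% lower. The 7 members were too few to set against these shares. PGD, the second NADPH-producing enzyme, rose in both: its vehicle mean was 8.16 ± 0.11, its cisplatin mean 8.86 ± 0.072 and its osimertinib mean 8.76 ± 0.083 (SD, n = 3 each). That is a rise of 0.71 (SE 0.068, limma adjusted p = 6.30e-06) and of 0.60 (SE 0.068, limma adjusted p = 2.51e-05). The others with osimertinib were H6PD, the enzyme of the endoplasmic reticulum, at 0.70, PGLS at 0.36 and TKT at 0.19 (limma adjusted p = 0.0109, 0.0177 and 0.0469). Leaving out osimertinib replicate 1 ended the calls of H6PD (0.0546), PGLS (0.06) and TKT (0.0689). H6PD was also lost without vehicle replicate 2 (0.0534), PGLS without vehicle replicate 1 (0.0754) or 2 (0.0612), and TKT under most settings (kept in 5 of 15).

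The hexosamine pathway, which makes the sugar nucleotide for protein O-GlcNAc and other glycans, went both ways: 4 of 12 rose and 3 fell with cisplatin, and 3 rose and 2 fell with osimertinib. Among all tested genes 16.5% rose and 14.5% fell with cisplatin, and 16.9% rose and 13.7% fell with osimertinib. A list of 12 is too short to set against these shares. OGT, the enzyme that adds O-GlcNAc, fell by 0.59 with cisplatin and by 0.57 with osimertinib (SE 0.068 each, limma adjusted p = 2.66e-05 and 3.59e-05). GNPNAT1, the acetyltransferase of the pathway, fell by 0.54 and by 0.53 (limma adjusted p = 0.00714 and 0.00812). UAP1L1 rose by 0.61 and 0.47, and the salvage kinase NAGK by 0.30 and 0.48 (limma adjusted p = 0.0392 and 0.00323). NAGK kept its cisplatin call under 7 of 15 settings. That call was lost without the level limit (0.0583), with median centring (0.0606) and, among others, when any of vehicle replicates 2 and 3 or the 3 cisplatin replicates was left out (up to 0.104). OGA, which removes O-GlcNAc, differed between the drugs: its means were 7.22 (vehicle), 6.90 (cisplatin) and 7.36 (osimertinib), a difference of 0.46 for osimertinib minus cisplatin (SE 0.086, limma adjusted p = 0.015). OGA missed the threshold there without osimertinib replicate 1 (0.0652) or 3 (0.0511) and with a plain variance model (0.052). The remaining called members, named after their values were seen, were GFPT1 (0.28, cisplatin) and RENBP (0.39 and 0.35). RENBP, with a vehicle mean of 4.21, also entered the test only through its treated arrays.

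**Figure D3:**
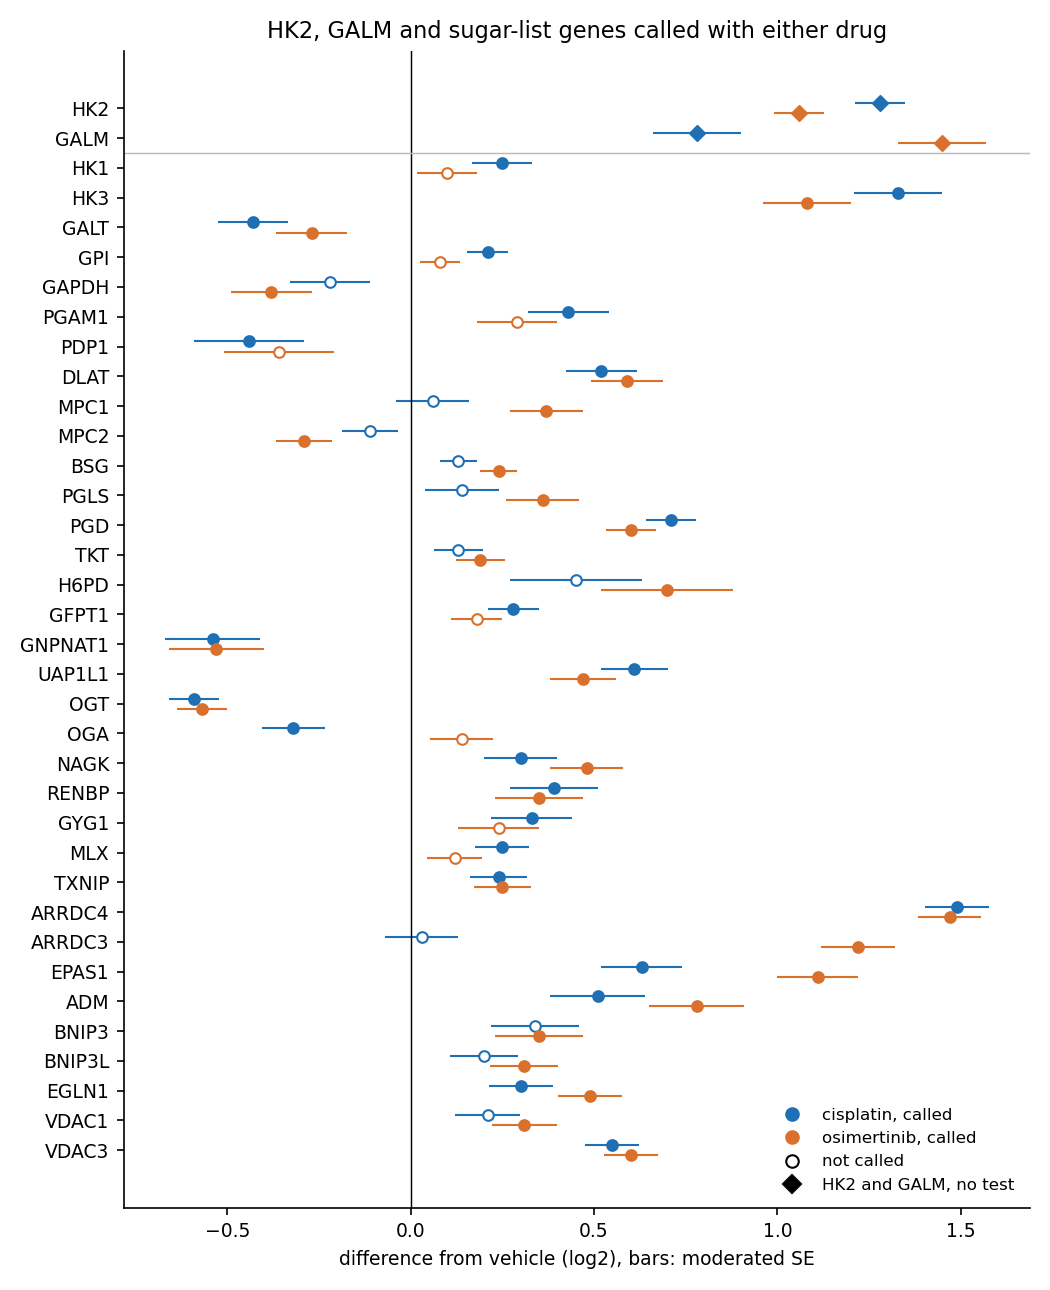
Log2 difference from vehicle (horizontal axis) with its moderated SE for HK2 and GALM (diamonds, described without a test) and for the listed sugar metabolism genes called with either drug (circles, filled where called), blue for cisplatin and orange for osimertinib. HK3 lies at 1.33 and 1.08 near HK2, while GALT lies at -0.43 and -0.27 on the other side of 0 from GALM. HK3 and RENBP are drawn filled but passed the level limit only through their treated arrays.

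Genes around HK2 at the mitochondrion and in glucose sensing were also tested. VDAC3, one of the channels of the outer mitochondrial membrane, rose by 0.55 with cisplatin and 0.60 with osimertinib (SE 0.074 each, limma adjusted p = 9.73e-05 and 5.12e-05). VDAC1, the docking channel best known for HK2, rose by 0.31 with osimertinib (limma adjusted p = 0.0177, but 0.0762 without vehicle replicate 1 and 0.0751 without osimertinib replicate 1). Its difference of 0.21 with cisplatin was not called (limma adjusted p = 0.0896). VDAC2 was at 0.09 and 0.10 (limma adjusted p = 0.662 and 0.63), and TSPO at 0.25 and 0.34 (limma adjusted p = 0.137 and 0.0503). Of the 4 tested docking genes 1 thus rose with cisplatin and 2 with osimertinib, too few to set against the 16.5% and 16.9% of all tested genes. DLAT, a subunit of pyruvate dehydrogenase, rose by 0.52 and 0.59 (limma adjusted p = 0.00114 and 4.29e-04). In the same list PDP1, named after its values were seen, fell by 0.44 with cisplatin (limma adjusted p = 0.0402). Its difference of -0.36 with osimertinib was not called (limma adjusted p = 0.0858), and the alternative settings were not examined for it. With osimertinib the mitochondrial pyruvate carrier subunit MPC1 rose by 0.37 (limma adjusted p = 0.0167) while its partner MPC2 fell by 0.29 (limma adjusted p = 0.0108). MPC1 was not called without vehicle replicate 2 or 3 or osimertinib replicate 1 (up to 0.0677), nor MPC2 without vehicle replicate 1 (0.0561). BSG, a chaperone of lactate transporters, rose by 0.24 with osimertinib (limma adjusted p = 0.00321). PDHA1, PDHB and DLD, also of this list, were not called with either drug. Of its 8 tested genes 1 rose and 1 fell with cisplatin, and 3 rose and 1 fell with osimertinib. That is too few to set against all tested genes, of which 14.5% and 13.7% were called lower. MondoA responds to the glucose phosphate that hexokinases make. The list for it holds 6 genes, not all of them its targets. With cisplatin 3 rose (MLX, TXNIP and ARRDC4), with osimertinib 3 rose (TXNIP, ARRDC4 and ARRDC3), and 0 fell. All tested genes gave 16.5% and 16.9% higher, and 6 genes were too few to set against these shares. MLXIP, which encodes MondoA, was at -0.22 and -0.17 (limma adjusted p = 0.236 and 0.373) and MLXIPL, its relative, at -0.22 and -0.16 (limma adjusted p = 0.0987 and 0.234). ARRDC4 rose by 1.49 and 1.47 (limma adjusted p = 7.75e-08 and 1.02e-07). TXNIP, the best known MondoA target, rose by 0.24 and 0.25 (limma adjusted p = 0.0356 and 0.0287). It lost both calls without the level limit (0.0703 and 0.0583) and with a plain variance model (0.0767 and 0.0662). Both were also lost without vehicle replicate 1 or 3, among other settings (up to 0.141 and 0.114). ARRDC3 rose with osimertinib by 1.22 (limma adjusted p = 1.98e-06), was at 0.03 with cisplatin (limma adjusted p = 0.862), and differed between the drugs by 1.19 (limma adjusted p = 4.08e-05). MLX rose by 0.25 with cisplatin (limma adjusted p = 0.0225). That call was lost with a plain variance model (0.0646) and without vehicle replicate 1 or 3 or cisplatin replicate 2 or 3 (up to 0.106).

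Hypoxia response genes outside glycolysis were higher in 3 of 12 with cisplatin and 5 of 12 with osimertinib, and 0 were lower. The shares over all tested genes were 16.5% and 16.9% higher and 14.5% and 13.7% lower. With 12 genes the counts were too few to set against them. EPAS1, which encodes HIF-2 alpha, followed the order of GALM: its means were 5.55 ± 0.18, 6.18 ± 0.04 and 6.66 ± 0.13 (SD, n = 3 each). EPAS1 rose by 0.63 and 1.11 (SE 0.11 each, limma adjusted p = 5.12e-04 and 5.54e-06). It differed between the drugs by 0.48 (limma adjusted p = 0.0344), a call that held under 6 of 15 settings and was lost, among others, without osimertinib replicate 1 (0.138). The peptide hormone gene ADM rose by 0.51 and 0.78, and EGLN1, the oxygen sensor that marks HIF for degradation, rose by 0.30 and 0.49. EGLN1 missed the threshold with cisplatin without vehicle replicate 2 (limma adjusted p = 0.0713) or cisplatin replicate 3 (0.1). VEGFA was at 0.16 and 0.22 (limma adjusted p = 0.169 and 0.0527). BNIP3L rose by 0.31 with osimertinib (limma adjusted p = 0.0221). That call was lost without the level limit (0.0518) and with a plain variance model (0.0522). Leaving out vehicle replicate 1 or 3 or osimertinib replicate 1 also ended it (up to 0.087). The 6 tested genes of AKT and mTOR signalling, the 7 of fructose, mannose and polyol use and the 2 of gluconeogenesis had 0 calls in the 3 contrasts by limma. Each of these lists was too short to set against the 31%, 30.6% and 1.75% of all tested genes called. Of the 3 tested glycogen genes GYG1 alone was called, with cisplatin (0.33, limma adjusted p = 0.0348). That call was lost without the level limit (0.0574) and with the replicate number as a block (0.0614). Leaving out vehicle replicate 2 or 3 or cisplatin replicate 2 or 3 also ended it (up to 0.138).

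The genes whose pattern over the 9 arrays came nearest to each enzyme were found by the root mean square difference between their deviations from their own means, over 6777 other protein-coding genes. Nearest to HK2 were NOCT, which encodes nocturnin (0.071 log2 units), the ephrin ligand EFNB1 (0.076), HK3 (0.08), the natriuretic peptide receptor NPR1 (0.088) and the tetraspanin CD82 (0.09). Their differences from vehicle were 1.19 to 1.33 with cisplatin and 0.93 to 1.10 with osimertinib. Nearest to GALM were IRF8, a transcription factor of monocytes and macrophages (0.11), RAB11FIP4 of endosome recycling (0.17), PPDPF (0.18), the glycosyltransferase GALNT12 (0.19) and the succinate receptor SUCNR1 (0.2). Their differences from vehicle were 0.39 to 0.86 with cisplatin and 1.22 to 1.54 with osimertinib. HK2 and GALM were 0.4 apart, which put GALM in place 671 from HK2 and HK2 in place 240 from GALM. These values are descriptions over arrays that share their treatment groups.

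**Figure D4:**
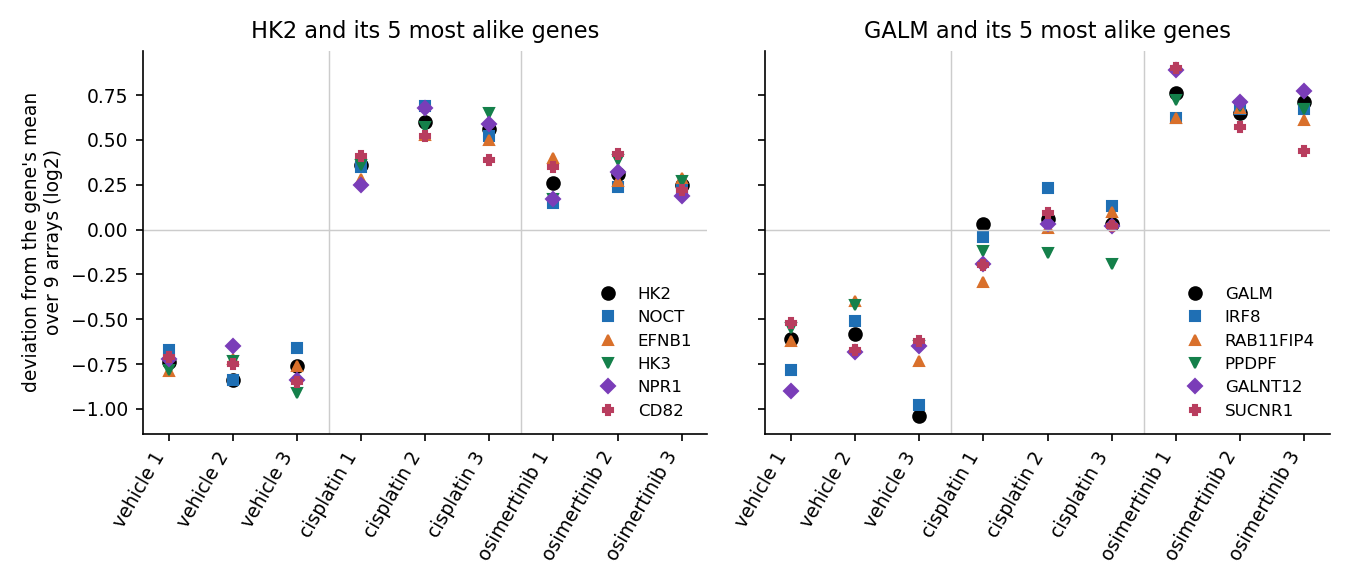
Deviation of each array's log2 level from the gene's mean over 9 arrays (vertical axis) for HK2 with its 5 nearest genes (left) and GALM with its 5 nearest genes (right); horizontal positions are the arrays, in groups of 3. By group mean the genes of the HK2 panel are highest with cisplatin and those of the GALM panel with osimertinib, where GALM deviates by 0.65 to 0.76. In the HK2 panel single arrays of the drugs overlap for EFNB1, HK3, NPR1 and CD82.

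HK2 and GALM both lie on chromosome 2, and their nearest tested protein-coding neighbours were not called higher with either drug. So few genes cannot be set against the 16.5% and 16.9% of all tested genes called higher with cisplatin and osimertinib. On one side of GALM, HNRNPLL, 63.2 kb away, was at -0.13 with cisplatin and 0.05 with osimertinib (limma adjusted p = 0.412 and 0.766). On the other side SRSF7, a splicing factor gene 8.83 kb away, fell by 0.55 and by 0.71 (SE 0.13 each, limma adjusted p = 0.00713 and 0.00121). The nearest tested genes to HK2 lay farther off, LOXL3 at 278 kb and MRPL19 at 753 kb. LOXL3 was at 0.23 and 0.17 and MRPL19 at -0.15 and -0.11, and neither was called (limma adjusted p = 0.226 to 0.428). LOXL3, with a vehicle mean of 4.16, entered the test only through its treated arrays.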

How the data were processed

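Total RNA of 9 THP-1 cultures was measured on Affymetrix Human Gene 2.0 ST arrays. Per the series' design text, a service provider processed the raw array files with standard pipelines, and the authors deposited gene-level values. The submitters' processing notes list Affymetrix Power Tools. For the log base, the background correction and the way probes were summarized, nothing is stated in the material at hand. Since the deposited numbers span 0.65 to 13.17 they were taken to be log2, and each fold depends on this. Array medians over all 53617 rows were 3.29 to 3.37, close enough that a shift common to most transcripts would not be seen.

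The platform annotation, which can be old, named 16098 rows with 1 gene and 0 with several, and left 37519 unnamed; all Entrez identifiers matched RefSeq (GRCh38.p14). Where a gene had several rows (779 genes), that with the highest mean stood for it. Genes whose mean reached 4.28, the median over genes, numbered 7442 and were tested with limma 3.58.1 in R 4.3.3: 3 group means, 6 residual degrees of freedom, empirical Bayes with trend and robust fitting, two-sided p-values, Benjamini-Hochberg adjustment within a contrast. Standard errors are moderated. The fit was tested on simulated data. Members and lists were chosen with earlier results of these data known. The text names, by rule, all tested hexokinase and Leloir genes, up to 4 called members of each other list by smallest p and up to 2 between the drugs, the 5 nearest genes in pattern and the nearest neighbours; others were named after their values were seen. No protein sequences were used.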

Additional observations from a re-analysis of the deposited data

How the results depend on the processing

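HK2 and GALM kept their direction under all 15 alternatives. HK2 ranged from 1.24 to 1.36 with cisplatin, 1.02 to 1.09 with osimertinib and -0.30 to -0.18 between the drugs, and GALM from 0.64 to 0.86, 1.30 to 1.53 and 0.64 to 0.70. Groups share replicate numbers. Over the tested genes, deviations of same-numbered arrays correlated at -0.227 to 0.126 (median 0.003). Those of arrays with different numbers correlated at -0.118 to 0.197 (median 0.000475), so the numbers were not taken to pair the samples. With the replicate number as a block, HK2 stood at 1.28, 1.06 and -0.23 and GALM at 0.78, 1.45 and 0.67; the block gave 2155, 2145 and 108 called genes against 2308, 2277 and 130, and 21, 26 and 2 listed sugar genes against 23, 26 and 3. Leaving out 1 array at a time gave 1813 to 2269, 1828 to 2497 and 54 to 147 called genes, and 14 to 25, 16 to 32 and 1 to 3 sugar genes. Quantile normalization on top gave 35 sugar genes with cisplatin (31 higher, 4 lower) against 23 (18 higher, 5 lower) and 39 with osimertinib (35 higher, 4 lower) against 26 (21 higher, 5 lower), and over all genes it moved the split to 1968 higher and 974 lower with cisplatin and 2004 and 932 with osimertinib, from 1227 and 1081 and from 1255 and 1022; the median difference of all genes was then 0.106 and 0.109. Between the drugs the count of called genes was 76 without the level limit, 217 with quantile normalization, 239 with median centring and 63 with a plain variance model, which left 1 sugar gene. The cause was not tested. Of 1620 values of named genes under alternatives, 97 lost a call, 15 gained one and 0 reversed. Calls kept throughout numbered 12 of 21 with cisplatin, 15 of 25 with osimertinib and 1 of 3 (ARRDC3) between the drugs. The 12 and the 15 include HK3, which passed the level limit only through its treated arrays. Signal over background was not measured here; levels near the limit of 4.28, such as GALM with vehicle, are the least certain.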
